A study of Homo sapiens with 2 samples.

Results

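The 9 enzymes described here make or recycle asparagine, proline, cysteine, alanine and aspartate, or open the route from oxaloacetate to phosphoenolpyruvate. They are asparagine synthetase (ASNS), the proline synthesis enzymes PYCR1 and ALDH18A1, the transsulfuration enzymes CBS and CTH, the glutathione-degrading enzyme CHAC1, the transaminases GPT2 and GOT1, and mitochondrial phosphoenolpyruvate carboxykinase (PCK2). They were listed by name with earlier results of these data known, and every array probe whose RefSeq accession belongs to one of them was taken, which gave 14 probes of 41000. Of the 9 genes, 4 had 1 probe and 5 had 2 probes. All 14 probes were well above background for both RNAs in both hybridizations, and none carried an outlier flag.

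SKOV3 is an adherent human ovarian adenocarcinoma cell line. RNA was compared between cl-sh3, a SKOV3 clone transduced with a pLKO.1-puro lentivirus encoding a short hairpin RNA against RUNX2, and a mock control clone that carried a scramble sequence in the same vector. Both were single clones selected with puromycin and grown in RPMI 1640 medium with fetal calf serum, glutamine and pyruvate, so that the knockdown and the clone cannot be told apart. Both RNAs were labelled and put on the same Agilent arrays of the human transcriptome, with cl-sh3 in Cy5 and the control in Cy3 in hybridization 1 and the reverse in hybridization 2.

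The same pair of RNAs was used in both hybridizations, on 1 slide, and they were counted as 1 replicate. No test between the clones was therefore possible, no p-value is given, and ± stands for the SD of the 2 hybridizations, which measures technical error only. Between 77.3% and 93.9% of the spots per channel were well above background. The 36060 probes with a ratio in both arrays differed between the hybridizations by a median of 0.22 on the log2 scale, and 95% of them by at most 0.63, against 0.27 and at most 0.59 for the 14 enzyme probes. With the rule of the study, at least 2-fold in the same direction in both hybridizations, 142 probes were lower and 44 higher in cl-sh3, against 124 and 77 with median centring in place of loess, 253 and 103 with the software's own ratios and 251 and 103 with the deposited table. Each of the 9 epithelial and ovarian carcinoma markers, such as ERBB2, KRT8, KRT18 and PAX8, was well above background for both RNAs, with mean log2 ratios from -0.66 to 0.68. So were 4 of 4 fibroblast, 3 of 4 leukocyte and 2 of 3 endothelial markers, at low signal, and 0 of them were 2-fold changed. The brightest RUNX2 probe, on the accession NM_004348, had log2 ratios of -2.04 and -1.30, which is 3.18-fold lower in cl-sh3. Another RUNX2 probe on this same accession had a mean log2 ratio of 0.02, and the remaining one, on a different accession, had -0.23.

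Cells short of amino acids, or under stress of the endoplasmic reticulum, slow general translation by phosphorylating the initiation factor eIF2, and the mRNA of the transcription factor ATF4 is then translated more. ATF4, paired with C/EBP proteins, binds composite elements named CARE in genes of amino acid synthesis and transport, and ASNS is the classical example. Most of the 9 enzymes are known as genes of this amino acid response. RPMI medium supplies asparagine, proline and cystine, so that cultured cells can import them as well as make them.

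To show where such letters stand, the 250 bases before each annotated start in RefSeq (GRCh38.p14) were searched on both strands for the CARE core TGATGNAA and for the RUNX core TGTGGT. Of the 9 genes, 7 had such a window, 10 windows in all, and PYCR1 and GPT2 had none. The CARE core was found for 3 of the 7 genes, ASNS, CHAC1 and GOT1, and for 3.89% of all 27305 genes with a window, or in 3 of the 10 windows and in 3.14% of all windows. The RUNX core was found for 0 of the 7 genes and for 13.2% of all genes with a window. Only the letters TGATGNAA and TGTGGT were searched for. Other forms of a CARE or RUNX site in these windows, and any site outside them, would have been missed. The windows of the 3 genes are shown with that of CTH, which held neither core, written 5′ to 3′ in the direction of the gene and with the CARE core in capitals.
ASNS: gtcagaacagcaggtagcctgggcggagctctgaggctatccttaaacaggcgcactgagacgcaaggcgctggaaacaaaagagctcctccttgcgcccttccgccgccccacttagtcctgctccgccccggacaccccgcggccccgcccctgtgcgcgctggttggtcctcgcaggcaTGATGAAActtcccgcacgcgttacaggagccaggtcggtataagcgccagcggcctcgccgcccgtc
CHAC1: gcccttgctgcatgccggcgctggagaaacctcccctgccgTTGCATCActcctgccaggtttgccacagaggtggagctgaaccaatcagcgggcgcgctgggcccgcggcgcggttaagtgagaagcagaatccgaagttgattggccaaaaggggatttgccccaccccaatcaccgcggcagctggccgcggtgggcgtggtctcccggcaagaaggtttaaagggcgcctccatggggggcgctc
GOT1: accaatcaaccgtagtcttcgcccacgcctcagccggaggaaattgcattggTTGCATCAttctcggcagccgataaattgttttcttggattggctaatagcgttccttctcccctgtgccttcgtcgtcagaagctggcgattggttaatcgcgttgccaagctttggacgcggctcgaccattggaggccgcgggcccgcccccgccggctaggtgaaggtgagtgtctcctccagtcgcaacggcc
CTH: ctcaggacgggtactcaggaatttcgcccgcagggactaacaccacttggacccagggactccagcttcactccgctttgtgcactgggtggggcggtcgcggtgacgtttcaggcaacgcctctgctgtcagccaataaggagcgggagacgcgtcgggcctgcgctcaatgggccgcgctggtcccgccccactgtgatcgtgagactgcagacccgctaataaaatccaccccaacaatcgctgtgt
They lie at chr7:97872409-97872658 for ASNS and chr10:99430625-99430874 for GOT1, both on the minus strand, and at chr15:40953221-40953470 for CHAC1 and chr1:70411018-70411267 for CTH, both on the plus strand. The core began 68 bases before the start in ASNS, 209 bases before it in CHAC1 and 198 bases before it in GOT1. In CHAC1 and GOT1 the core read on the other strand, as TTGCATCA. The other ASNS start and all 3 CBS starts, as well as ALDH18A1 and PCK2, held neither core. These matches describe letters in the windows, and binding was not measured.

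Of the 14 enzyme probes, 3 passed the 2-fold rule downwards, those of ASNS, CTH and PCK2, and 0 passed it upwards. Over all probes, 0.394% were lower and 0.122% higher by this rule. These 3 genes are also on the study's own list of changed genes, which was drawn from the same arrays, and their count is not independent of it. Of the 14 probes, 10 had a ratio below 0 in both hybridizations (27.3% of all probes), 1 had a ratio above 0 in both (29.8% of all probes) and 3 changed sign between them. By the brightest probe of each gene, the median log2 ratio of the 9 genes was -0.96, with -1.05 in hybridization 1 and -0.84 in hybridization 2, while the median over 28270 genes was 0.02. When all probes of a gene were averaged instead, the median of the 9 genes was -0.64. In both hybridizations PCK2, ASNS and CTH were the 3 lowest of the 9 genes and ALDH18A1 was the highest. In these bulk RNAs, fewer cells with a transcript and less of it per cell cannot be told apart.

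**Figure D1:**
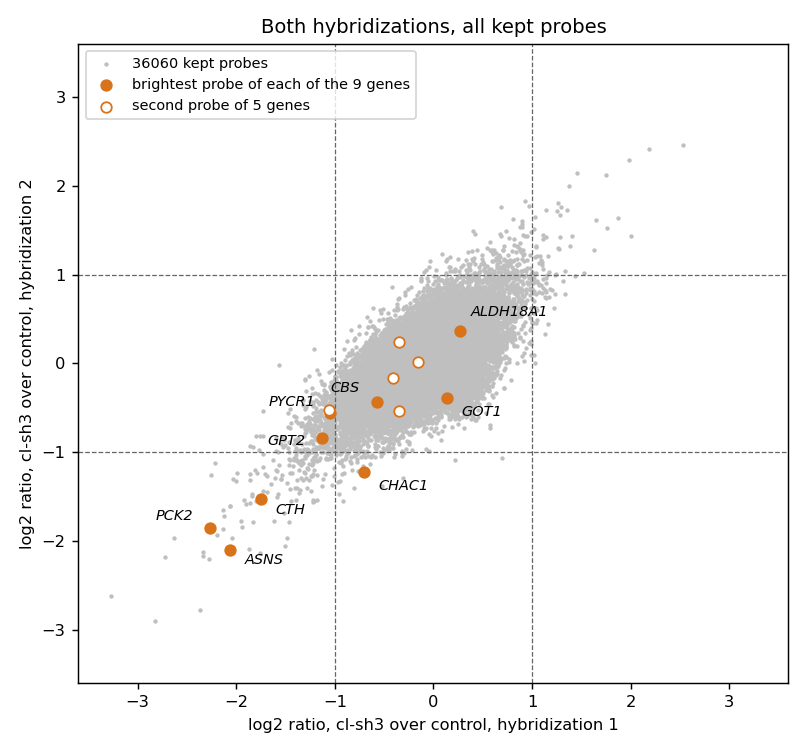
Log2 ratio of cl-sh3 over control in hybridization 1 (x axis) against hybridization 2 (y axis) for the 36060 kept probes (grey), with the brightest probe of each of the 9 genes (filled) and the second probe of 5 genes (open). Dashed lines mark 2-fold. ASNS, PCK2 and CTH lie past 2-fold on both axes, CHAC1 on the y axis only, and GPT2, PYCR1 and the second PCK2 probe on the x axis only.

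Asparagine synthetase, which forms asparagine from aspartate with glutamine as the nitrogen donor, was the lowest of the 9 genes by its mean. Its probe read a log2 intensity of 14.87 and 14.88 in the control and of 12.81 and 12.77 in cl-sh3, in hybridizations 1 and 2. Both cl-sh3 readings lay far below both control readings, and swapping the dyes hardly moved them. The log2 ratios were -2.06 and -2.10, with a mean of -2.08 ± 0.03, so that ASNS was 4.23-fold lower in cl-sh3. By this mean it ranked 9 among the 36060 probes, counted from the lowest. Under the other processing settings tried its value lay between -2.21 and -1.98.

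The enzymes that remove asparagine were read on other probes. ASRGL1, an asparaginase that releases aspartate and ammonia, had 4 probes on 2 accessions. Its brightest probe read 13.22 and 13.37 in the control and 14.33 and 14.32 in cl-sh3, a log2 ratio of 1.11 and of 0.95. A second probe on that accession, NM_001083926, gave log2 ratios of 1.39 and 1.32 and was at least 2-fold higher in both hybridizations. The probes on NM_025080 had 0.80 and 1.26, and 0.78 and 1.13. All 4 probes were thus higher in cl-sh3 in both hybridizations, in the direction opposite to ASNS, and their means of 0.95 to 1.36 are changes near 2-fold. By its brightest probe, which represents the gene in the counts below, ASRGL1 stayed just short of the 2-fold rule. The other asparaginase measured, ASPG, gave a dim signal, with 0.06 and -0.05.

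**Figure D2:**
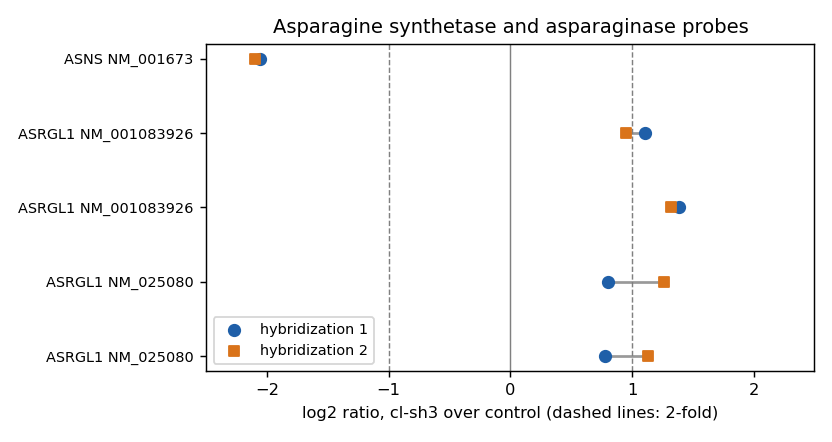
Log2 ratio of cl-sh3 over control for the ASNS probe and the 4 ASRGL1 probes, by accession, in hybridization 1 (circles) and hybridization 2 (squares), with dashed lines at 2-fold. Both ASNS values lie near -2 and all 8 ASRGL1 values between 0.78 and 1.39.

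Proline is made from glutamate in the mitochondrion, where ALDH18A1 (pyrroline-carboxylate synthase) makes the intermediate that PYCR1 then reduces to proline. The brightest PYCR1 probe read 14.80 and 14.43 in the control and 13.76 and 13.87 in cl-sh3. Both cl-sh3 readings were below both control readings, but by an amount that differed between the hybridizations. The log2 ratios were -1.05 and -0.56, a mean of -0.80 ± 0.34 or 1.74-fold lower, and the 2-fold rule was met in hybridization 1 only. The second PYCR1 probe, on the accession NM_153824 of another transcript, was dim and changed sign, with log2 ratios of -0.35 and 0.24. ALDH18A1 did not share the lower ratio of the brightest PYCR1 probe. Its probe read 12.83 and 12.55 in the control and 13.10 and 12.92 in cl-sh3. This gave ratios of 0.27 and 0.37 on the log2 scale and a mean of 0.32 ± 0.07, or 1.25-fold higher. In each hybridization cl-sh3 was the higher reading, although the control of hybridization 1 came close to cl-sh3 of hybridization 2. ALDH18A1 was the only one of the 9 genes above 0 in both hybridizations, and its value lay between 0.27 and 0.39 under the other processing settings tried. Its mean stood at 91.2% of the ranking of all probes from the lowest.

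PYCR3, the cytosolic form of the reductase, had log2 ratios of -0.45 and 0.26. Of the enzymes that break proline down, PRODH, which starts its oxidation, had 0.10 and 0.22 on a dim probe, and ALDH4A1, which completes it to glutamate, 0.60 and -0.10. PYCR3, PRODH and ALDH4A1 did not reach 2-fold in either hybridization, and the brightest probes of PYCR3 and ALDH4A1 changed sign between the hybridizations. The second PYCR3 probe had 0.08 and 0.09, and the other ALDH4A1 probes had 0.39 and 0.51, and 0.17 and 0.10.

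Transsulfuration carries the sulfur of homocysteine to cysteine in consecutive steps, the first by CBS, which condenses homocysteine with serine, and the second by CTH, which cleaves the product to cysteine. The CTH probe read 12.32 and 11.86 in the control and 10.57 and 10.32 in cl-sh3. The gap between the clones was several times the difference between readings of one clone. In log2 ratios this was -1.75 and -1.53, a mean of -1.64 ± 0.15 or 3.12-fold lower, at rank 36 from the lowest. CBS changed less. Its brightest probe read 15.04 and 14.95 in the control and 14.47 and 14.51 in cl-sh3. Its log2 ratios of -0.57 and -0.44 had a mean of -0.50 ± 0.09, or 1.42-fold lower. The second CBS probe carried the same accession, NM_000071, and had log2 ratios of -0.16 and 0.02. The 15 other measured genes of methionine, transsulfuration and cysteine metabolism had a median log2 ratio of 0.16, and 0 of them were at least 2-fold changed, a count near the share of all genes (0.371% lower and 0.12% higher). The lowest of them was MTRR, which reactivates methionine synthase, at -0.68 and -0.28. The highest was BHMT, which remethylates homocysteine with betaine, at 0.71 and 0.41 on a dim probe. That probe read 8.96 and 8.04 in the control and 9.67 and 8.44 in cl-sh3. Readings of the same RNA thus differed more between the hybridizations than the clones differed within one.

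CHAC1 splits glutathione in the cytosol and so releases its cysteine in the form of cysteinylglycine. Its probe read 12.84 and 12.92 in the control and 12.14 and 11.70 in cl-sh3. The control readings were nearly equal, and the cl-sh3 readings, both lower, differed more. The log2 ratios were -0.70 and -1.22, a mean of -0.96 ± 0.37 or 1.94-fold lower, and hybridization 2 alone passed 2-fold. CHAC2, its paralog, had log2 ratios of -0.10 and 0.47. The median of 12 other measured genes of glutathione metabolism was 0.02. GCLC, the catalytic subunit of the enzyme that commits cysteine to glutathione, was the lowest by its mean, at -0.88 and -0.59. OPLAH, which opens oxoproline to glutamate, was the highest, at 0.15 and 0.47 on a dim probe. SLC7A11, the cystine importer, was named after its values were seen: its 3 probes had log2 ratios of -0.99 and -0.15, -1.58 and -1.0, and -0.48 and -0.51, and so all lay below 0. None met the 2-fold rule in both hybridizations. The probe with -1.58 and -1.0, whose mean was -1.29, missed it only before rounding, by a small margin in hybridization 2.

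**Figure D3:**
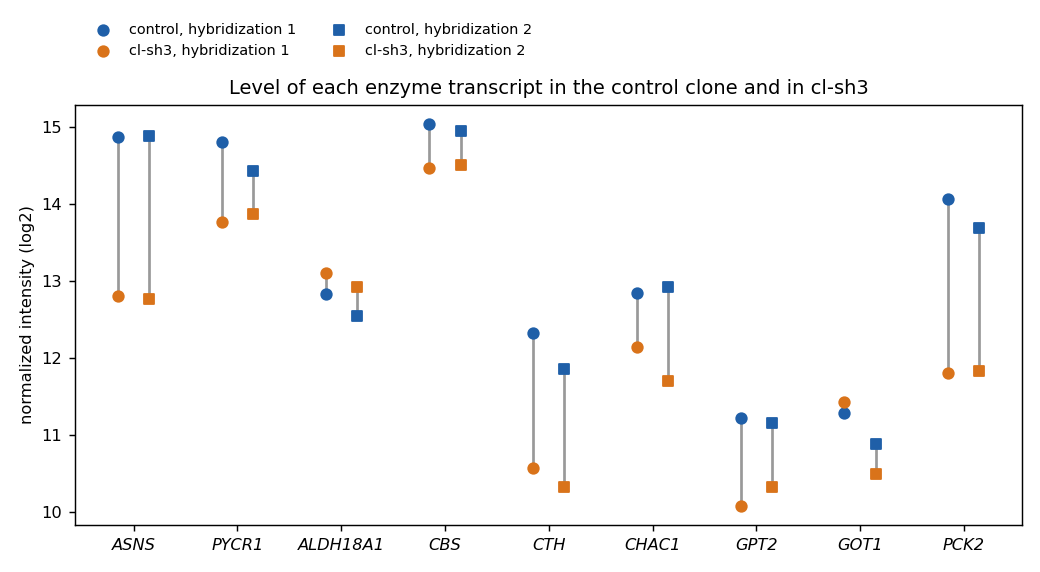
Normalized log2 intensity (y axis) of the brightest probe of each of the 9 genes in the control clone (blue) and in cl-sh3 (orange), in hybridization 1 (circles) and hybridization 2 (squares), with a line joining the RNAs of 1 hybridization. The lines of ASNS and PCK2 span about 2 log2 units, while cl-sh3 is the upper point for ALDH18A1 in both hybridizations and for GOT1 in hybridization 1. Heights are comparable within a gene only.

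The transaminases move the amino group of glutamate to pyruvate or to oxaloacetate. GPT2, the mitochondrial alanine transaminase, read 11.22 and 11.16 in the control and 10.08 and 10.33 in cl-sh3 with its brightest probe. The clones did not overlap, and the readings of each clone lay close together. The ratios on the log2 scale were -1.13 and -0.84, a mean of -0.99 ± 0.21 or 1.98-fold lower, just short of 2-fold in the mean and past it in hybridization 1 only. The second GPT2 probe, also on NM_133443, gave log2 ratios of -0.41 and -0.16. GPT, the cytosolic alanine transaminase, had 0.09 and -0.01.

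GOT1, the cytosolic aspartate transaminase of the malate-aspartate shuttle, differed little between the clones. Its brightest probe read 11.29 and 10.88 in the control and 11.43 and 10.49 in cl-sh3. The clones overlapped, and the difference between hybridizations exceeded that between the clones. Its log2 ratios were 0.14 and -0.39, a mean of -0.13 ± 0.37, and those of the second probe were -0.35 and -0.54. GOT1 was thus among the 3 genes with a CARE core in the window but had the smallest mean change of the 9 by its brightest probe. GOT2, its mitochondrial counterpart, had 0.39 and 0.49 with its brightest probe and -0.38 and -0.10 with the other. The median of 17 other measured genes of transaminases and glutamate metabolism was 0.03. KYAT3, a kynurenine and glutamine transaminase, was the lowest at -1.22 and -0.44, and BCAT1, the cytosolic branched-chain amino acid transaminase, the highest at 0.84 and 0.89.

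PCK2 turns oxaloacetate of the mitochondrion into phosphoenolpyruvate, a route that lets cells build upper glycolytic intermediates from amino acid carbon. Its brightest probe read 14.07 and 13.69 in the control and 11.80 and 11.83 in cl-sh3. The readings of cl-sh3 were nearly equal and about 2 log2 units below those of the control. The log2 ratios were -2.27 and -1.85, a mean of -2.06 ± 0.29 or 4.17-fold lower, at rank 11 from the lowest. The second PCK2 probe, also on NM_004563, gave log2 ratios of -1.06 and -0.53 and thus the same direction with a smaller size. PCK1, the cytosolic form that dominates in liver and kidney, was dim, with log2 ratios of 0.04 and -0.07. Of 18 other measured genes around pyruvate and oxaloacetate, 9 were above 0 in both hybridizations (30.3% of all genes) and 3 below 0 in both (25.5% of all genes), and the median was 0.09. The lowest was ME2, mitochondrial malic enzyme, at -0.13 and -0.37, and the highest MDH2, mitochondrial malate dehydrogenase, at 0.23 and 0.62.

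**Figure D4:**
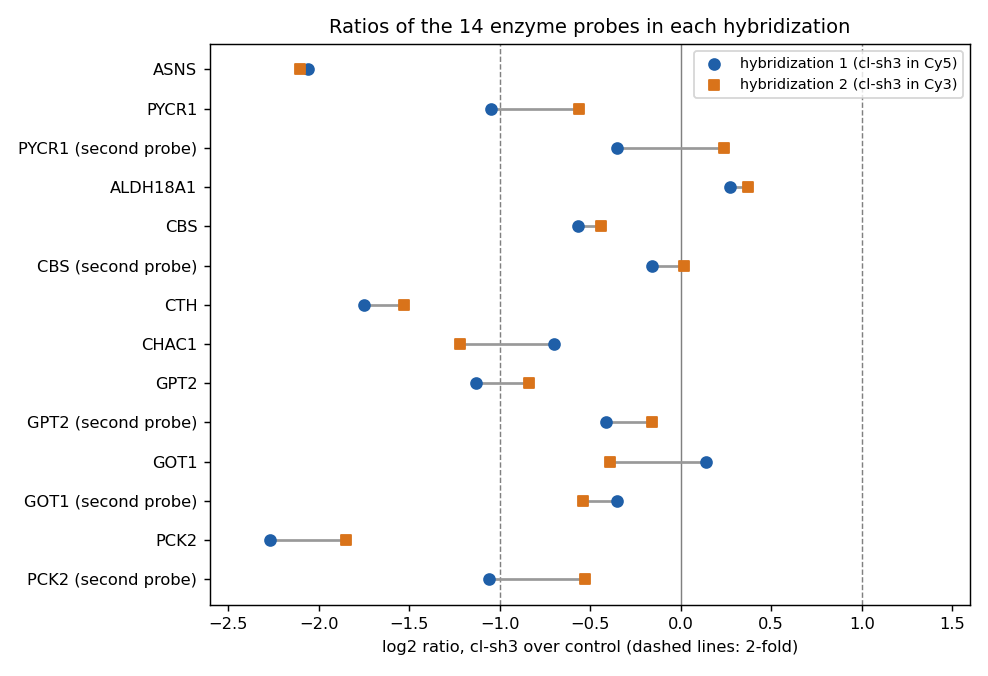
Log2 ratio of cl-sh3 over control (x axis) for all 14 enzyme probes, in hybridization 1 (blue circles) and hybridization 2 (orange squares), with dashed lines at 2-fold and a line joining the values of 1 probe. The second probes of PYCR1, CBS, GPT2 and PCK2 lie nearer to 0 than the brightest ones, and that of GOT1 lies farther from it.

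The genes with a pair of probes gave different sizes of change from the same RNAs, but the probes of a pair were not equally bright. The second probe was dimmer by 40.3-fold for PYCR1, 23.1-fold for CBS and 13.2-fold for PCK2. For GPT2 it was dimmer by 2.89-fold and for GOT1 by 2.51-fold. The second probe was higher than the brightest one by a mean of 1.27 on the log2 scale for PCK2, 0.75 for PYCR1, 0.70 for GPT2 and 0.44 for CBS, and lower by a mean difference of -0.32 for GOT1. For PCK2 the gap was 1.21 in hybridization 1 and 1.33 in hybridization 2, and for GPT2 it was 0.73 and 0.67. The gaps therefore recurred with the dyes reversed, and for these 4 genes each was larger than the difference between the hybridizations of the same gap. With an offset of 0 in the background correction, which leaves dim ratios less compressed, the gaps were 1.2, 0.75, 0.70 and 0.44. The probe sequences were not analysed here, and the part of the transcript that each probe reads was not tested.

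Besides the 9 enzymes, 91 other genes of the same pathways were listed, of which 89 had a probe and 84 were kept as measured, GOT2 being on more than 1 list. By their brightest probes 0 of the 84 were at least 2-fold lower and 0 at least 2-fold higher, where 0.371% and 0.12% of all genes were. Below 0 in both hybridizations were 22 of the 84 (25.5% of all genes), and above 0 in both were 26 (30.3% of all genes), with a median log2 ratio of 0.03. The shares were thus near those of all genes. The medians of the lists ran from -0.15 for asparagine and aspartate to 0.16 for methionine, transsulfuration and cysteine, compared with -0.96 for the 9 enzymes, which were chosen with earlier results of these data known. Among the 12 genes of asparagine and aspartate metabolism the lowest was ADSL, which releases fumarate in purine synthesis, at -0.61 and -0.52, and the highest was ASRGL1. Among the 11 of proline metabolism, P4HA1, the catalytic subunit of collagen prolyl hydroxylase, had -1.06 and -0.46, and P4HB, the partner subunit and a disulfide isomerase of the endoplasmic reticulum, had 0.41 and 0.71.

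**Figure D5:**
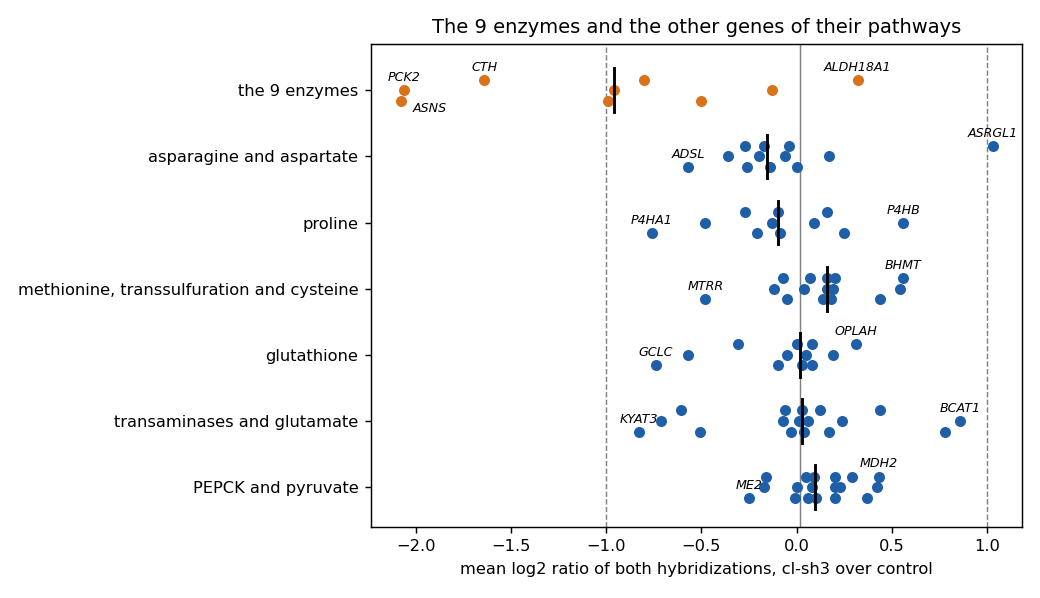
Mean log2 ratio of cl-sh3 over control (x axis) of the 9 enzymes (orange) and of the other measured genes of 6 pathway lists (blue), each gene by its brightest probe. Black bars are medians, the grey line is the median of all genes at 0.02 and dashed lines mark 2-fold. ASNS, PCK2 and CTH lie at -1.64 or below, apart from all other points, and ASRGL1 is the highest point at 1.03.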

How the data were processed

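RNA of cl-sh3 and of the control clone was measured in 2 dye-swapped hybridizations. The authors deposited the intensity of each spot with its local background (Feature Extraction 10.5.1.1 per the file headers, 8.5.1.1 per the processing notes, design annotated on hg18) and the log10 ratio of Cy5 over Cy3 after that software's own correction. The deposited value table holds the same log10 ratio to within 0.00245 and 0.005. It has column medians of 0.0108 and 0, and its scale, centring and direction follow from this match. Median pixel intensities were corrected with normexp (offset 50) in limma 3.58.1 (R 4.3.3), control spots were removed, flagged spots (153 and 144) left out and each array normalized by loess. Aquantile scaling gave the intensities of single RNAs. Spots of a probe were averaged and the sign was turned to cl-sh3 over control. Kept were 36065 of 41000 probes, those where the software's flag put cl-sh3 or the control above background on each array, in at least 50% of spots. The offset draws dim ratios towards 0, and the number of arrays limits the precision.

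Accessions were named through a RefSeq table (GRCh38.p14), which held 18023 of 32890 accessions, and NM_004348 through the study's table. Genes were represented by their brightest probe. The text names every probe of the 9 genes and of RUNX2 and, of the pathway lists, the genes at least 2-fold changed, the lowest and highest of each list, the counterparts of the enzymes in other compartments and the enzymes that break down the products, apart from results not reported here. The enzymes, the pathway and marker lists and the motifs were chosen with earlier results of these data known. The steps were checked on simulated data. Alternatives covered the offset, no background correction, median centring, the software's ratios, the deposited table, flagged spots, detection filters, each hybridization alone, a 2-fold rule on the mean, and genes as the mean over their probes. Python 3.11.15, numpy 2.4.6, pandas 2.3.3 and matplotlib 3.10.9 were used.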

Additional observations from a re-analysis of the deposited data

How the results depend on the processing

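ASNS, CTH and PCK2 were the 3 enzyme probes at least 2-fold lower under every alternative that used both hybridizations, and 0 enzyme probes were at least 2-fold higher under any. With hybridization 1 alone, 6 of the 14 enzyme probes were at least 2-fold lower, as were 506 of all 36060 probes. With hybridization 2 alone, 4 of the 14 and 196 of the 36060 were lower. The additions were CHAC1 in hybridization 2, and PYCR1, GPT2 and the second PCK2 probe in hybridization 1. The median of the 9 genes was -1.05 and -0.84 in single hybridizations and -0.64 when probes of a gene were averaged. Of the 84 other pathway genes, 3 were at least 2-fold lower in hybridization 1 alone, GLUL, KYAT3 and P4HA1, and 0 in hybridization 2 alone. Of all 28270 genes, 339 were at least 2-fold lower in hybridization 1 and 148 in hybridization 2. The sign of the brightest probes of GOT1, PYCR3, GPT, PCK1, CHAC2, ALDH4A1 and ASPG and of the second probes of PYCR1 and CBS differed between the hybridizations alone. Over all probes, 253 were lower and 103 higher with the software's ratios, 251 and 103 with the deposited table, 250 and 93 with the mean of both hybridizations in the rule, and 77 were higher with median centring, where lower probes made up 61.7% of those changed in place of 76.3%. Single hybridizations gave 196 to 506 lower and 88 to 219 higher probes. The cause was not tested for median centring or for the software's ratios, which the deposited table repeats, while the rule on the mean and single hybridizations ask for less agreement by construction. Only technical error can be seen in 1 pair of RNAs.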
